A study of Homo sapiens with 6 samples.

Results

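The genes described here are the ligands and receptors of the epidermal growth factor (EGF) family with the protease and the feedback inhibitor that belong to them. The 10 members were chosen by symbol: the ligands *AREG*, *EREG*, *HBEGF*, *TGFA* and *BTC*, the receptors *EGFR*, *ERBB2* and *ERBB3*, the protease *ADAM17* and the inhibitor *ERRFI1*. All 10 were found among the 29982 gene symbols of the deposited table, and 9 of them, all but *BTC*, had a mean of at least 1 FPKM over the libraries and were tested among 13287 genes. FPKM counts sequenced fragments relative to transcript length and library size, so levels of different genes can be compared per length.

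The RNA came from OVCAR5, an established human ovarian cancer cell line, and the labels name no genetic change in any group. Cells were exposed to 10 μM SpiD7, a dimer of a spirocyclic compound that binds proteins covalently, or to its solvent DMSO. There were 2 DMSO libraries, 2 libraries after 2 h of SpiD7, 1 after 6 h and 1 after 12 h, and the labels of the DMSO libraries give no exposure time. The study's text speaks of a vehicle treatment for each of the 3 times, but here every time is set against the same 2 DMSO libraries. The second DMSO library and the second 2 h library were recovered by subtraction from deposited means that contain the first library, so they are named recovered libraries below. Nothing says that the libraries of a group came from separate cultures, and the p-values measure only the spread between these libraries.

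Ligands of this family are made as membrane-anchored precursors, and a protease, chiefly ADAM17, cuts them free. The released ligand joins receptor chains into pairs, and the receptors then switch on the RAS, RAF, MEK and ERK chain and the PI3K and AKT branch. Amphiregulin (*AREG*) and TGFα (*TGFA*) bind EGFR. Heparin-binding EGF-like growth factor (*HBEGF*), epiregulin (*EREG*) and betacellulin (*BTC*) bind EGFR and ERBB4. ERBB2 has no known ligand of its own, and ERBB3 has a weak kinase and signals mainly in pairs with ERBB2. ERRFI1, also called MIG6, binds the EGFR kinase domain and inhibits it, and its gene is itself induced by growth factor signalling. The RNA levels below say nothing of shedding, receptor activity or protein.

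The libraries were close in depth but not alike. The value of 1 read gave a relative depth between 0.769 and 1.12 times that of the first DMSO library. All 7 epithelial markers were expressed in every library with a summed level of 3214 to 4822 FPKM. Of the 4 leukocyte markers, *CD3E* was listed at 0 in every library and *PTPRC* was at most 0.0317 FPKM, while *CD68* was at 22.7 to 37.3 FPKM and *CD14* at 3.10 to 9.36 FPKM, for a sum of 27.6 to 42.2 FPKM. The part of these markers in the results was not tested. In these libraries the 5 fibroblast markers summed to 0.846 to 2.72 FPKM. Both recovered libraries stood apart from the other 4. Their endothelial marker sums were 11.5 and 8.31 FPKM against 0.441 to 1.20 FPKM elsewhere, nearly all of it *PECAM1*, and one short RNA, *MIR6723*, took 25.0% and 21.8% of their FPKM total against 5.04% to 9.19% elsewhere. The recovered DMSO library was more than 2-fold above the first for 8.72% of the genes tested and more than 2-fold below it for 4.77%, and 1 of the 9 members tested, *ERRFI1*, was among the former. The members are therefore given against each DMSO library below, and the medians of longer lists against the mean of both unless stated.

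Of the members, *AREG* and *HBEGF* stood higher in all 4 SpiD7 libraries than in both DMSO libraries. Their promoters are shown with that of *EREG*, which is a neighbour of *AREG* and overlapped DMSO at 2 h. The sequences are the 250 bases before the start of transcription in RefSeq (GRCh38.p14), read 5′ to 3′ on the strand of the gene, with a motif in capitals. They are chr4:74444886-74445135 (+ strand) for *AREG*, chr5:140346604-140346853 (− strand) for *HBEGF* and chr4:74364895-74365144 (+ strand) for *EREG*.
AREG: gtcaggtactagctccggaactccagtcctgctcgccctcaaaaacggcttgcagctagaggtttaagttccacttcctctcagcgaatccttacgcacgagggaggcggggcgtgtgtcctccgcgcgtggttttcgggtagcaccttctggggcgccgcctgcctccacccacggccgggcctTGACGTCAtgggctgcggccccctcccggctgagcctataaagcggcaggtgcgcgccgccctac
HBEGF: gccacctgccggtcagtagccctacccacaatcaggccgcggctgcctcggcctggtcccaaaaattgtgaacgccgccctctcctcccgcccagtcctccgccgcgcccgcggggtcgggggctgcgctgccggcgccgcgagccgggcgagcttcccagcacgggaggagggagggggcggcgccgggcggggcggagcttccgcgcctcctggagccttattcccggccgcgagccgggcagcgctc
EREG: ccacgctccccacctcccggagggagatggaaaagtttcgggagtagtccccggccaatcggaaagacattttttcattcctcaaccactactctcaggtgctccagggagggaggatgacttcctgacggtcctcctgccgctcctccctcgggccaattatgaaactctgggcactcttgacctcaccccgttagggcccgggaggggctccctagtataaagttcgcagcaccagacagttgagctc
The capitals in the *AREG* promoter mark TGACGTCA, the cyclic AMP response element, at 65 to 58 bases before the start, which reads the same on both strands. This motif was found in 1.65% of the 35116 RefSeq promoters of that length. The *HBEGF* and *EREG* promoters held no match on either strand to TGACGTCA, TGACTCA or TGAGTCA (AP-1, in 4.20% of all promoters), TGATGCAA (the C/EBP-ATF element, 0.772%), the CArG box (1.16%) or GAANNTTC (a heat shock element, 5.78%). Of the 10 members 9 had an entry in the promoter table, all but *ERBB3*. Among the others, 1 alternative promoter of *EGFR* held 2 AP-1 matches and the *ERBB2* promoter held 1 GAANNTTC. These are matches of letters and not binding sites.

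*HBEGF* was the member that differed most from DMSO. Its level was 17.2 FPKM in the first DMSO library and 28.9 FPKM in the recovered one, 38.9 and 35.5 FPKM in the first and the recovered 2 h libraries, 85.2 FPKM at 6 h and 69.2 FPKM at 12 h. No SpiD7 library overlapped DMSO, and the 6 h library was the highest of the 6. In a bulk sample a larger RNA content per cell and a larger share of cells with the RNA cannot be told apart. On the log2(FPKM + 0.1) scale *HBEGF* was higher at 2 h by 0.73 (SE 0.33, 95% interval −0.23 to 1.69, n = 2 against 2), which did not pass the test (limma, unadjusted p = 0.0974, Benjamini-Hochberg adjusted p = 1.0). The 6 h library was 4.95-fold above the first DMSO library and 2.94-fold above the recovered one, and the 12 h library was 4.02-fold and 2.39-fold above them. The 6 h and 12 h libraries are single and have no test, and both are set against the same DMSO libraries.

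*AREG* showed a smaller difference that was already present at 2 h. Its level was 22.8 and 28.4 FPKM in the DMSO libraries, 41.1 and 39.4 FPKM in the 2 h libraries, 45.7 FPKM at 6 h and 42.9 FPKM at 12 h. The 4 SpiD7 libraries lay within 39.4 to 45.7 FPKM, all above both DMSO libraries. The difference at 2 h was 0.66 on the log2 scale (SE 0.20, 95% interval 0.08 to 1.23, n = 2 against 2) and had an unadjusted limma p of 0.0347. After Benjamini-Hochberg adjustment over all 13287 genes the limma p was 1.0, so *AREG* was not called. At 6 h it was 2.00-fold above the first DMSO library and 1.61-fold above the recovered one, and at 12 h 1.88-fold and 1.51-fold.

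*EREG*, *TGFA* and *BTC* followed no common course. *EREG* was at 19.4 and 15.95 FPKM in DMSO, 23.8 and 13.8 FPKM at 2 h, 20.0 FPKM at 6 h and 12.7 FPKM at 12 h. The 2 h libraries of *EREG* lay on either side of DMSO, the 6 h library was 0.04 on the log2 scale above the nearer DMSO library (and between the DMSO libraries under median ratio scaling), and the 12 h library was the lowest of all. *TGFA* was at 9.66 and 6.24 FPKM in DMSO, 8.11 and 6.47 FPKM at 2 h, 8.21 FPKM at 6 h and 11.6 FPKM at 12 h. The 12 h library of *TGFA* was the highest, at 0.26 on the log2 scale above the first DMSO library and 0.88 above the recovered one, but it overlapped DMSO when scaled to the FPKM total without *MIR6723*. *BTC* stayed at or under 0.860 FPKM in every library and was not tested.

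**Figure D1:**
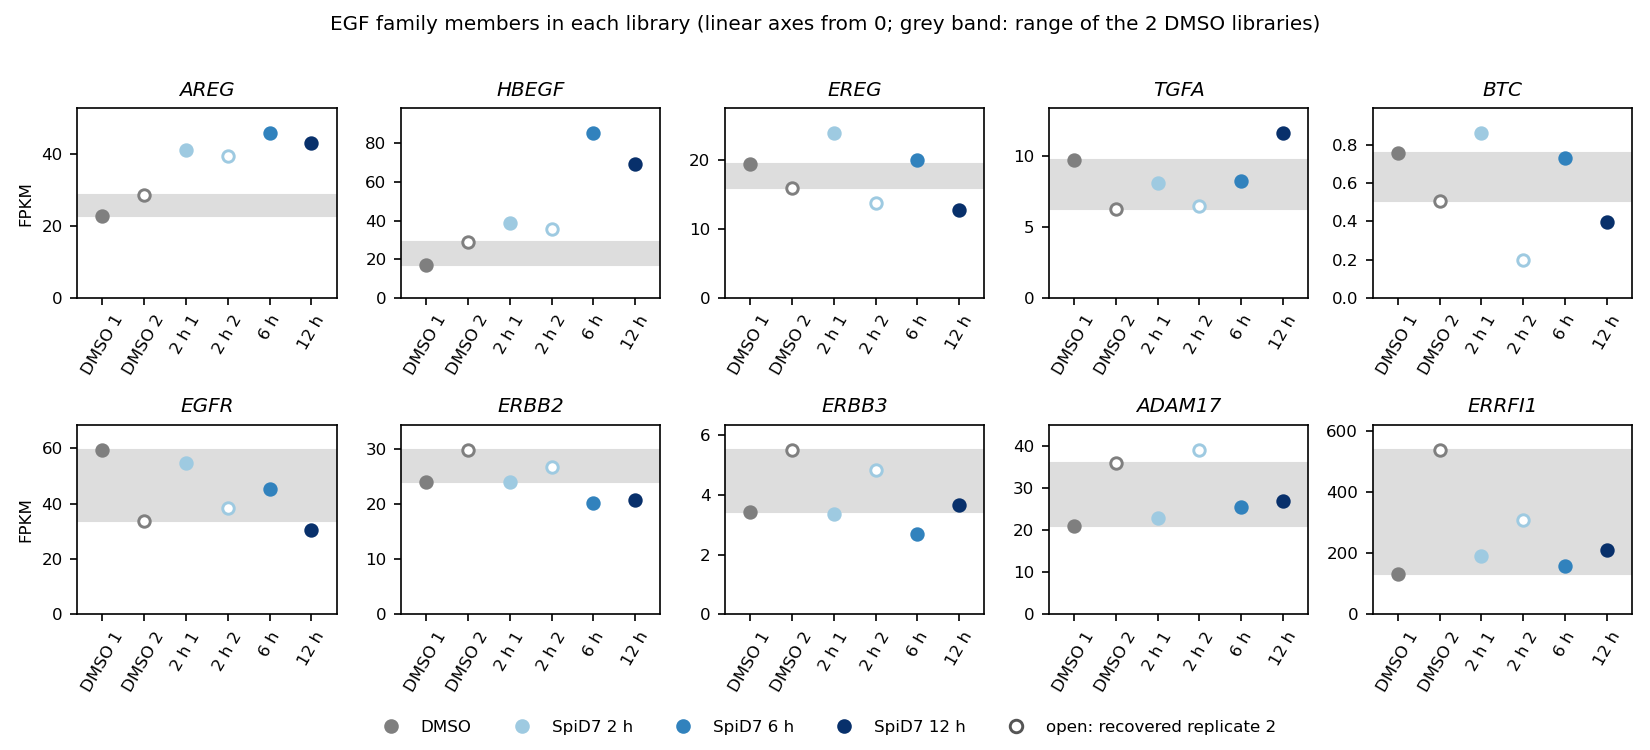
Level of each of the 10 members in each library (y axis, FPKM, linear from 0, own scale per gene; x axis, the 6 libraries; 1 point is 1 library, open where recovered by subtraction; the grey band spans the 2 DMSO libraries). All 4 SpiD7 points of *AREG* and *HBEGF* lie above the band, while those of *ADAM17* and *ERRFI1* lie mostly inside the wide band that the DMSO libraries span.

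No receptor was higher in the SpiD7 libraries as a group, and *EGFR* and *ERBB2* had their lowest levels at the later times. *EGFR* was at 59.4 and 33.5 FPKM in DMSO, 54.6 and 38.2 FPKM at 2 h, 45.4 FPKM at 6 h and 30.3 FPKM at 12 h. Its DMSO libraries differed by 0.82 on the log2 scale, and the 12 h library was 0.97 below the first and 0.15 below the recovered one. *ERBB2* was at 24.1 and 29.9 FPKM in DMSO, 24.0 and 26.8 FPKM at 2 h, 20.1 FPKM at 6 h and 20.7 FPKM at 12 h. The 6 h and 12 h libraries of *ERBB2* were the lowest of the 6, by 0.26 and 0.22 on the log2 scale below the nearer DMSO library. The 12 h library no longer lay below both under upper quartile scaling, where it was 0.04 above the first DMSO library. *ERBB3* was at 3.42 and 5.52 FPKM in DMSO, 3.37 and 4.84 FPKM at 2 h, 2.69 FPKM at 6 h and 3.67 FPKM at 12 h, and its 6 h library alone lay outside both DMSO libraries by more than 0.1 on the log2 scale. *ERBB4*, the 4th receptor of the family and no member here, was at or under 0.114 FPKM in every library.

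The receptors differed little at 2 h in the limma fit. The log2 differences were 0.03 for *EGFR* (95% interval −1.14 to 1.21), −0.08 for *ERBB2* (−0.68 to 0.51) and −0.10 for *ERBB3* (−1.15 to 0.94). These intervals still allow a 2-fold difference of *EGFR* in either direction and of *ERBB3* downward.

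*ADAM17*, the protease that frees most of these ligands, was at 21.0 and 36.05 FPKM in DMSO, 23.0 and 39.1 FPKM at 2 h, 25.5 FPKM at 6 h and 27.0 FPKM at 12 h. The values split by replicate and not by treatment, with both recovered libraries the highest. Each 2 h library was above the DMSO library of its own number by 0.13 and 0.12 on the log2 scale, and the fitted difference was 0.12 (95% interval −1.17 to 1.42).

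*ERRFI1* was the most abundant member and the one whose DMSO libraries differed most. It was at 133.9 FPKM in the first DMSO library and 539.9 FPKM in the recovered one, a 4.03-fold gap. The other libraries lay between them, at 190.7 and 310.2 FPKM at 2 h, 158.1 FPKM at 6 h and 210.6 FPKM at 12 h. The sign of each difference depended on the DMSO library it was set against. At 2 h the first library was 0.51 on the log2 scale above the first DMSO library and the recovered one 0.80 below the recovered DMSO library, and at 12 h the value was 0.65 above the first and 1.36 below the recovered one. The fitted difference at 2 h was −0.15 (SE 0.82, 95% interval −2.57 to 2.28).

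**Figure D2:**
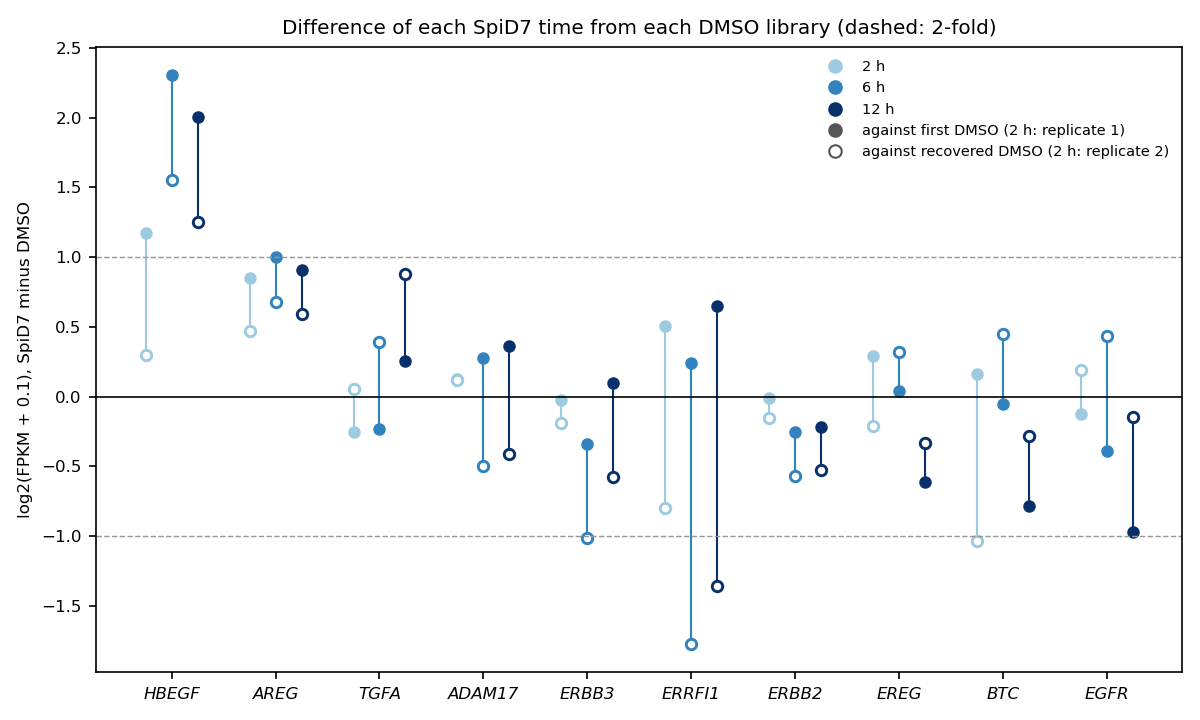
Difference of each SpiD7 time from DMSO on the log2(FPKM + 0.1) scale (y axis) for each member (x axis, ordered by the 12 h difference from the DMSO mean); filled points are against the first DMSO library and open points against the recovered one, and at 2 h each library is set against the DMSO library of its own number. Both points of *HBEGF* at 6 h and 12 h lie above the dashed 2-fold line, at 1.25 to 2.30, and the points of *ERRFI1* lie on both sides of 0.

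Counted over the members, limma with Benjamini-Hochberg adjustment called 0 of 9 at 2 h, against 0.0% of all genes tested called higher and 0.0226% called lower. At an unadjusted p under 0.05 it named 1 of 9 as higher, *AREG*, against 2.52% of all genes, and 0 of 9 as lower, against 0.324%. The 2 h and DMSO libraries did not overlap for 2 of 9, *AREG* and *HBEGF*, both higher at 2 h, or 22.2%, against 13.7% of all genes for higher and 8.1% for lower. The mean of the 2 h libraries was more than 2-fold from the DMSO mean for 0 of 9, against 2.32% of all genes higher and 0.662% lower. All 4 SpiD7 libraries lay above both DMSO libraries for the same 2 of 9, against 8.93% of all genes, and below both for 0 of 9, against 5.04%. At 9 genes, each member is 11.1% of such a count.

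At 6 h the single library was more than 2-fold above both DMSO libraries for 1 of 9 members, *HBEGF*, against 3.21% of all genes, and more than 2-fold below both for 0 of 9, against 0.61%. It lay anywhere above both for 3 of 9 (*AREG*, *EREG* and *HBEGF*), against 31.6% of all genes, and below both for 2 of 9 (*ERBB2* and *ERBB3*), against 29.2%. At 12 h the library was more than 2-fold above both DMSO libraries again for 1 of 9, *HBEGF*, against 3.88%, and more than 2-fold below for 0 of 9, against 0.993%. It lay anywhere above both for 3 of 9 (*AREG*, *HBEGF* and *TGFA*), against 30.1%, and below both for 3 of 9 (*EGFR*, *ERBB2* and *EREG*), against 35.6%. Lying outside both DMSO libraries was thus about as frequent among the members as among all genes. Under a scaling to the FPKM total without *MIR6723* the 12 h count was 0, with *HBEGF* 0.95 on the log2 scale above the recovered DMSO library. That scaling moved the median of all genes at 12 h from −0.05 to −0.39 and at 6 h from 0.03 to −0.22, and the share of higher genes among those more than 2-fold from both DMSO libraries went from 79.6% to 36.3% at 12 h and from 84.1% to 63.1% at 6 h. With upper quartile scaling that share was 90.5% at 12 h. Of the genes for which all 4 SpiD7 libraries lay outside both DMSO libraries, 63.9% were higher, against 53.7% with median ratio scaling and 79.1% with upper quartile scaling. *AREG* and *HBEGF* lay above both DMSO libraries in all 4 SpiD7 libraries under each of the 4 scalings. Between 6 h and 12 h 0 of 9 members differed by more than 2-fold, against 1.67% of all genes higher and 2.04% lower at 12 h.

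Summed over the family, ligand RNA was higher in all 4 SpiD7 libraries than in both DMSO libraries, also under the other 3 scalings for the 6 ligands tested. This was not shared by all of them. Of the 6, 2 lay above both DMSO libraries in all 4, *AREG* and *HBEGF*, against 8.93% of all genes. Another 1 lay below both, against 5.04%. The 11 ligand genes of the family summed to 75.2 and 87.4 FPKM in DMSO, 117 and 101 FPKM at 2 h, 163 FPKM at 6 h and 142 FPKM at 12 h. *HBEGF* made up 22.9% and 33.1% of that sum in DMSO. Its share was 33.1% and 35.2% in the 2 h libraries, reached 52.1% after 6 h and stood at 48.8% after 12 h. Among ligand levels per length the order in the first DMSO library was *AREG*, *EREG*, *HBEGF* and *TGFA*. In the recovered DMSO library *HBEGF* and *AREG* were nearly level at 28.9 and 28.4 FPKM, at 2 h *AREG* was first and *HBEGF* a close second in both libraries, and at 6 h and 12 h *HBEGF* was first and *AREG* second. The ratio of *HBEGF* to *EGFR* was 0.289 and 0.863 in DMSO and 0.711 and 0.930 in the 2 h libraries, so that these overlapped DMSO, against 1.88 in the 6 h library and 2.28 in the 12 h library.

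Of the 11 ligand genes 6 passed the filter on low values. Their median log2 difference was 0.12, 0.13 and 0.05 for the 3 times in order, where all genes tested had −0.01, 0.03 and −0.05. *EPGN* (epigen, a ligand of EGFR) went the other way from *AREG*: it was at 2.76 and 2.01 FPKM in DMSO, 1.89 and 0.796 FPKM at 2 h, 1.16 FPKM at 6 h and 1.45 FPKM at 12 h. All 4 SpiD7 libraries of *EPGN* lay below both DMSO libraries, under all 4 scalings, but the 2 h difference of −0.88 on the log2 scale did not pass (limma, unadjusted p = 0.157, Benjamini-Hochberg adjusted p = 1.0). *EGF* itself was at 1.35 to 3.88 FPKM, with the recovered libraries highest. *NRG2* and *NRG4* did not exceed 1.35 FPKM, *NRG1* did not exceed 0.0481 FPKM and *NRG3* was listed at 0 throughout.

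*EPGN*, *EREG*, *AREG* and *BTC* are neighbours on chromosome 4 (GRCh38, GENCODE 29). Counted from the start of *AREG*, *EPGN* starts at −136.7 kb and *EREG* at −79.99 kb on the same strand, while *BTC* starts at 349.6 kb and is read in the opposite direction. Of the 4 neighbours only *AREG* was higher in all SpiD7 libraries, *EPGN* was lower in all, and *EREG* and *BTC* had SpiD7 libraries on both sides of DMSO. *HBEGF* lies on chromosome 5 (140332843 to 140346631, − strand), where *NRG2* lies on the same strand (139846779 to 140043299).

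**Figure D3:**
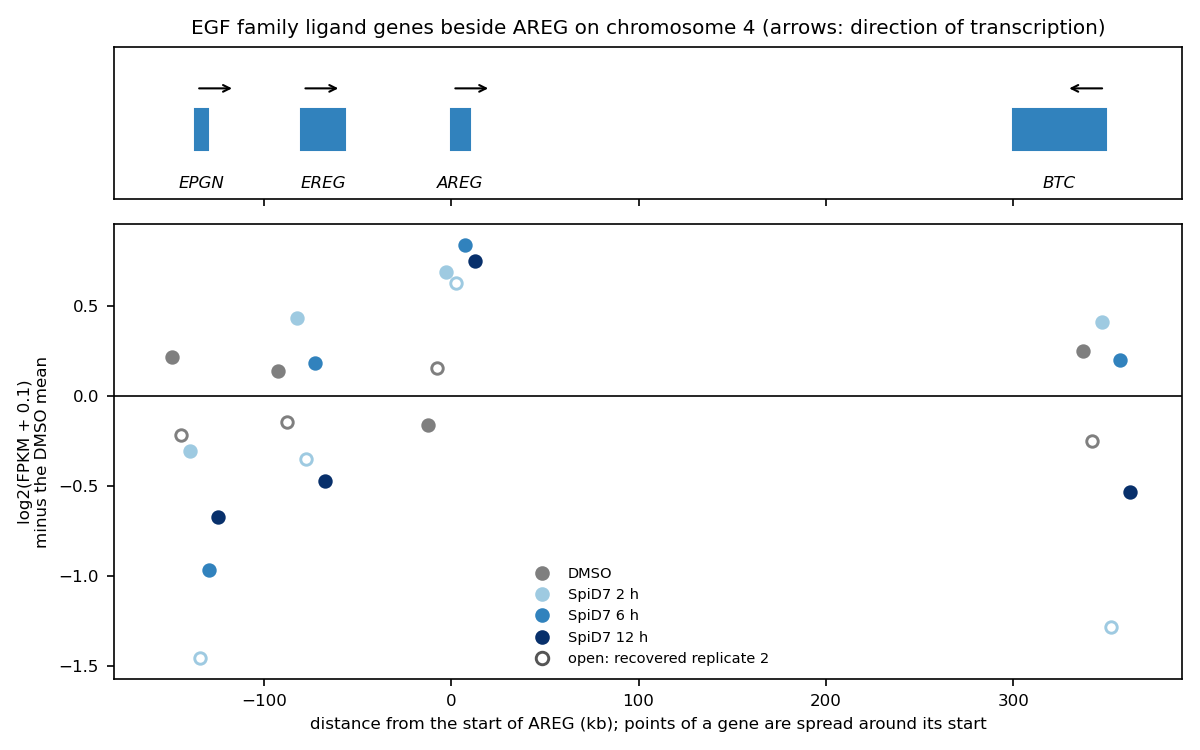
The 4 ligand genes beside *AREG* on chromosome 4 (top: boxes are genes and arrows the direction of transcription; x axis, distance from the start of *AREG* in kb) and the level of each library minus the DMSO mean (bottom: y axis, log2(FPKM + 0.1); 1 point is 1 library, open where recovered). The SpiD7 points of *AREG* all lie above both DMSO points, up to 0.84 at 6 h, those of *EPGN* all lie below both DMSO points, and those of *EREG* and *BTC* spread to both sides.

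Around the members, the shedding list held 10 genes, of which 9 were tested and 0 were called or had an unadjusted p under 0.05. Its median log2 difference was −0.05, −0.17 and −0.31 for the 3 times in order, and at 12 h it ranged from −0.51 to −0.02 with the choice of DMSO library, the recovered one giving the lower value. The gene farthest from DMSO was *TIMP3*, the tissue inhibitor that blocks ADAM17 among other metalloproteases. *TIMP3* was at 22.8 and 23.75 FPKM in DMSO, 22.1 and 18.1 FPKM at 2 h, 41.2 FPKM at 6 h and 53.8 FPKM at 12 h. It was the 1 gene of the 9 tested more than 2-fold above both DMSO libraries at 12 h, against 3.88% of all genes. When scaled to the FPKM total without *MIR6723* it was 0.86 on the log2 scale above the DMSO mean. *ADAM10*, the other main sheddase, was the lowest at 12 h: it was at 40.9 and 61.0 FPKM in DMSO, 40.3 and 57.9 FPKM at 2 h, 33.6 FPKM at 6 h and 27.5 FPKM at 12 h. Its 6 h and 12 h libraries lay below both DMSO libraries.

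Of the 13 negative regulators of the receptors, all were tested and 0 were called or had an unadjusted p under 0.05. The medians were 0.02, −0.06 and −0.04, and at 12 h each DMSO library alone gave 0.01 and 0.12. *SOCS3*, a feedback inhibitor of cytokine signalling, was the highest at 12 h, with 27.9 and 26.3 FPKM in DMSO, 31.5 and 28.3 FPKM at 2 h, 48.3 FPKM at 6 h and 47.4 FPKM at 12 h. All 4 SpiD7 libraries of *SOCS3* lay above both DMSO libraries, but its 2 h libraries overlapped DMSO under median ratio scaling. *SOCS4* also lay above both in all 4, with 10.1 and 9.61 FPKM in DMSO and 11.2 to 12.6 FPKM after SpiD7, but its 12 h library lay below DMSO when scaled to the total without *MIR6723*. Thus 2 of the 13 lay above both in all 4, against 8.93% of all genes, and 0 lay below both, against 5.04%. *LRIG1*, a membrane protein that promotes loss of these receptors, was the lowest at 12 h. It was at 4.24 and 12.2 FPKM in DMSO, 3.87 and 9.68 FPKM at 2 h, 4.51 FPKM at 6 h and 4.26 FPKM at 12 h, so that only the recovered libraries were high.

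In the signalling chain below the receptors, of the 16 adaptor, RAS, RAF, MEK and ERK genes, 0 were called or had an unadjusted p under 0.05 at 2 h and 0 were more than 2-fold from both DMSO libraries at 6 h or 12 h, with medians of −0.03, −0.10 and −0.15. At 12 h 3 of the 16 lay above both DMSO libraries and 8 below, against 30.1% and 35.6% of all genes. Upper quartile scaling gave 7 above and 3 below, against 42.2% and 23.2% of all genes. Scaling to the FPKM total without *MIR6723* gave 0 above and 13 below, against 12.7% and 61.4%. The ends were *BRAF*, with 3.27 and 4.86 FPKM in DMSO and 5.54 FPKM at 12 h, and *PTPN11*, which encodes the phosphatase SHP2, with 49.3 and 36.5 FPKM in DMSO and 30.7 FPKM at 12 h. Of the 11 genes of the PI3K and AKT branch, 0 were called, 0 had an unadjusted p under 0.05 and 0 were more than 2-fold from both DMSO libraries. Their medians were −0.12, −0.23 and −0.42. At 12 h 9 of the 11 lay below both DMSO libraries, against 35.6% of all genes. The count was 8 with upper quartile scaling, against 23.2% of all genes, and 10 when scaled to the FPKM total without *MIR6723*, against 61.4%. *PIK3CA*, the catalytic subunit p110α, was the highest of them at 12 h, with 16.1 and 16.9 FPKM in DMSO and 22.2 FPKM at 12 h, and *STAT3* was the lowest, with 28.2 and 32.9 FPKM in DMSO and 20.2 FPKM at 12 h. *PIK3CA* lay above both DMSO libraries in all 4 SpiD7 libraries, as 1 of the 11, against 8.93% of all genes. *PIK3CB*, the catalytic subunit p110β, lay below both in all 4, with 10.8 and 10.6 FPKM in DMSO and 7.33 to 9.94 FPKM in the SpiD7 libraries. Of the 16 genes of the chain *ARAF* did so, with 20.3 and 20.0 FPKM in DMSO and 14.8 to 19.9 FPKM after SpiD7. These were 1 of the 11 and 1 of the 16, against 5.04% of all genes. None of the 16 lay above both in all 4. At 2 h *ARAF* overlapped DMSO when scaled to the total without *MIR6723*, and *PIK3CB* under that and upper quartile scaling.

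The 20 genes that ERK signalling is known to induce or that feed back on it differed in direction between times and genes. At 2 h 0 of 20 were called or had an unadjusted p under 0.05. The 2 h libraries lay below both DMSO libraries for 6 of 20 and above both for 0, against 8.1% and 13.7% of all genes. The medians were −0.09, 0.06 and −0.16 for the 3 times in order, but at 12 h the first DMSO library alone gave 0.51 and the recovered one alone −0.06. At 12 h 8 of 20 lay above both DMSO libraries and 6 below both, against 30.1% and 35.6% of all genes. More than 2-fold above both were 2 of 20, against 3.88%, and more than 2-fold below both 0 of 20, against 0.993%. *PLAUR*, the urokinase receptor, was at 32.7 and 46.5 FPKM in DMSO, 37.5 and 36.3 FPKM at 2 h, 64.1 FPKM at 6 h and 114.2 FPKM at 12 h. *PHLDA2* was at 49.9 and 27.0 FPKM in DMSO, 59.0 and 26.4 FPKM at 2 h, 85.1 FPKM at 6 h and 114.9 FPKM at 12 h. *PHLDA1* was the lowest at 12 h, with 49.7 and 96.1 FPKM in DMSO, 46.7 and 41.8 FPKM at 2 h, 34.9 FPKM at 6 h and 34.3 FPKM at 12 h. In all 4 SpiD7 libraries 4 of 20, *SPRY1*, *SPRED1*, *ETV4* and *PHLDA1*, lay below both DMSO libraries, against 5.04% of all genes, and 0 lay above both, against 8.93%, although *SPRED1* and *ETV4* overlapped under upper quartile scaling and when scaled to the total without *MIR6723*. Under the latter scaling *PLAUR* was 0.99 above the recovered DMSO library and *PHLDA2* 0.81 above the first, on the log2 scale at 12 h.

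Like *ERRFI1*, many of these genes were higher in the recovered DMSO library. Of the 20, 14 were higher there than in the first DMSO library, against 5985 of the 13287 genes tested. The median difference was 0.45 on the log2 scale, against −0.06 over all genes tested. More than 2-fold higher were 5 of the 20, *SPRY4*, *DUSP6*, *IER3*, *MYC* and *LIF*, against 8.72% of all genes. *IER3* was at 43.7 and 509.1 FPKM in DMSO. *DUSP6*, an ERK phosphatase, was at 28.5 and 91.1 FPKM in DMSO, and between 32.15 and 41.9 FPKM in the 4 SpiD7 libraries. In the first pair of libraries 12 of 20 were higher at 2 h than in DMSO, against 6661 of the 13287 genes tested. In the recovered pair 3 of 20 were, against 6131 of 13287. The same 2 libraries carried the high *PECAM1* and *MIR6723* values, whose part in these differences was not tested.

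**Figure D4:**
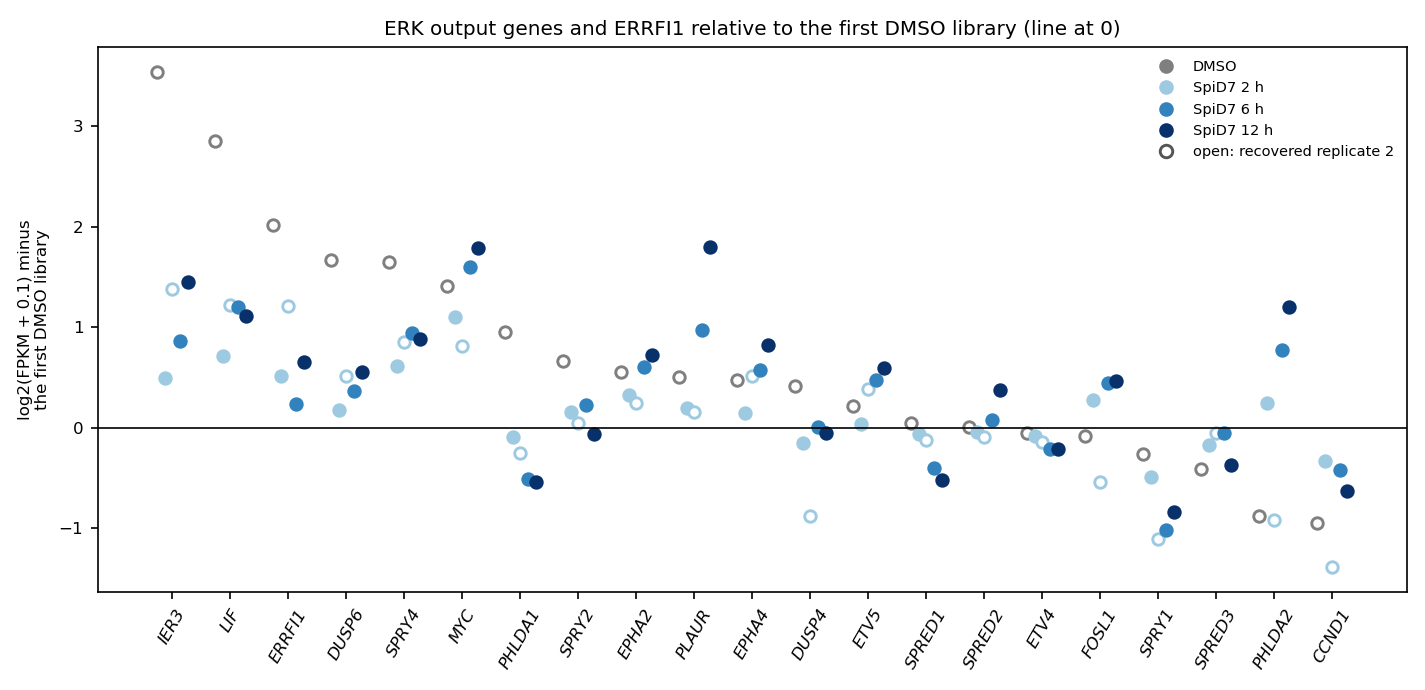
The 20 ERK output genes and *ERRFI1* (x axis, ordered by the difference of the 2 DMSO libraries) in each library relative to the first DMSO library, which is the line at 0 (y axis, log2(FPKM + 0.1); 1 point is 1 library, open where recovered). The open grey DMSO point is at 3.54 for *IER3* and 2.01 for *ERRFI1*, above every SpiD7 point of those genes, while *PLAUR* and *PHLDA2* have their 12 h point highest.

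The genes with the pattern most like that of *HBEGF* and *ERRFI1*, the 2 members tested with the widest range (2.30 and 2.01 on the log2 scale), were sought by Pearson's r over the 6 libraries among 4407 genes with a range of at least 1. The points share libraries and the r values are descriptions. For *HBEGF* the nearest were *IDI2-AS1* (r = 0.989), *LINC00263* (r = 0.987) and *SHOX2* (r = 0.986), all at low levels of at most 5.57 FPKM. *IDI2-AS1* is an antisense gene, and with no strand stated for the counting its reads cannot be told from those of its partner. For *ERRFI1* they were *CEBPD* (r = 0.998), *EME2* (r = 0.992) and *QPCTL* (r = 0.989). *CEBPD*, a C/EBP transcription factor, was at 10.3 and 86.1 FPKM in DMSO, 16.5 and 35.6 FPKM at 2 h, 14.2 FPKM at 6 h and 20.8 FPKM at 12 h, the same order of libraries as *ERRFI1*. In all 38 genes had an r over 0.95 with *HBEGF* and 65 with *ERRFI1*.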

How the data were processed

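OVCAR5 RNA was sequenced in 6 libraries. The authors trimmed reads with Trim Galore, aligned them with TopHat2 2.0.8 and computed FPKM with Cufflinks and Cuffdiff 2.1.1 (versions per the submitters' processing notes). The table header names hg38. The deposited FPKM values stand in 4 comparisons, each scaled on its own, with the authors' fold changes, p and q values, which were not used. The columns named for the second replicates held means that contain the first library with a weight of 0.5261 (DMSO) or 0.5093 (2 h), so the second library was recovered as the remainder, and a remainder under 0.2% of the mean was set to 0. The 6 h and 12 h values were divided by 0.9724 and 0.994, the ratios given by the shared DMSO library.

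Rows of one symbol were summed. Genes with a mean of at least 1 FPKM were tested on log2(FPKM + 0.1) at 2 h with limma 3.58.1 in R 4.3.3, called at a Benjamini-Hochberg adjusted p under 0.05. A fold change on this scale understates the change of low genes. The fit was tested on simulated data. At the spread of the real genes, itself estimated from 2 libraries a group, it called 0 of the 200 genes made to differ. With the median spread given to every gene it called 199 of the 200, and 6 unchanged genes. The result of the fit thus depended on the spread, and an absence of calls at 2 h says little. Read counts are not given, so no counting interval was computed. Relative depth was read from the smallest steps of the values.

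The members and lists were chosen with earlier results of these data known. Every member was named, and of each list the genes more than 2-fold from both DMSO libraries at 6 h or 12 h, the highest and lowest at 12 h, and the 3 genes most like the 2 widest-ranging members. Genes with all 4 SpiD7 libraries on one side of DMSO, or high in one DMSO library, were added after their values were seen. Alternatives were other pseudocounts, filters, scalings, row choices, an intensity trend, the replicate block and leaving out each library. Protein sequences were not used here. Promoter letters came from RefSeq.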

Additional observations from a re-analysis of the deposited data

Results flagged for a closer look

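Of the pathway genes around the members, 4 had both 2 h libraries on one side of both DMSO libraries and a later library on the other side. These differences between times were not tested, and the share of all genes with such a change was not computed. Of all genes, 13.7% had both 2 h libraries above DMSO and 8.1% below. The 12 h library lay above both DMSO libraries for 30.1% and below both for 35.6%. These separate shares do not tell whether the 4 are unusual. *TIMP3* was below DMSO by 0.21 on the log2 scale at 2 h and above it by 0.82 at 6 h and 1.20 at 12 h. *FRMD8* was 0.21 below at 2 h and 0.21 above at 12 h. *SOS1* was 0.14 above at 2 h and then lower, at −0.14 at 6 h and −0.35 at 12 h. *SPRED2* was 0.07 below at 2 h and above by 0.0726 at 6 h and 0.38 at 12 h. *TIMP3* kept its sides under all 4 scalings. The values of *FRMD8*, *SOS1* and *SPRED2* are given on 1 scaling only. Scaling to the FPKM total without *MIR6723* moved the median of all genes at 12 h from −0.05 to −0.39, so their small differences may depend on the scaling.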

How the results depend on the processing

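No member was called at 2 h under any alternative run. With 2 libraries a group the fit called no changed gene in the simulation at the spread of the real genes, so this says nothing about stability. The number of all genes called at 2 h was 3, and it was 6 with a pseudocount of 0.01, 1 with a pseudocount of 1, 0 without the filter on low values, 0 with upper quartile scaling, 5 with an intensity trend and 0 to 21 when each library was left out. A lone library left in an arm was assumed to vary like the other group. With the replicate number as a block 0 genes were called and 1874 had an unadjusted p under 0.05, against 378 without it. The labels share only a number: same-numbered deviations correlated at 0.369 over genes, from 2 pairs. The number of members more than 2-fold from both DMSO libraries at 12 h was 1, and 0 with the FPKM total without *MIR6723*. Leaving out each DMSO library gave 1 to 3 such members at 6 h and 1 to 2 at 12 h. These were *ERBB3*, *ERRFI1* and *HBEGF* at 6 h and *ERRFI1* and *HBEGF* at 12 h without the first DMSO library. The causes were not tested.

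*HBEGF* and *AREG* stayed above DMSO at 2 h, 6 h and 12 h in every alternative run, with *HBEGF* at 2 h between 0.36 and 1.11 and *AREG* between 0.50 and 0.82 on leaving out each library. The small differences of other members at 2 h changed sign. With median ratio scaling *EGFR* was −0.0101 and *EREG* −0.00038, with the total without *MIR6723* *ERBB2* was 0.0189, and with the deposited means *EGFR* was −0.0485. On leaving out each library *EGFR* ran from −0.38 to 0.44, *ERBB2* from −0.24 to 0.0745, *ERBB3* from −0.44 to 0.23, *EREG* from −0.35 to 0.43, *TGFA* from −0.41 to 0.21, *ERRFI1* from −1.15 to 0.86 and *ADAM17* from −0.26 to 0.51. Against one or the other DMSO library the sign also differed for *EGFR* and *TGFA* at 6 h, *ERBB3* at 12 h, and *ERRFI1* and *ADAM17* at both times. The 2 DMSO libraries and the single libraries at 6 h and 12 h limit every comparison.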
